A study of Arabidopsis thaliana with 16 samples.

Results

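The transcripts described here are those measured at a high and nearly equal level in 5 cell populations of the Arabidopsis thaliana root under iron deficiency. They were chosen from the signals themselves: a probe set, the group of probes that measures one transcript on an Affymetrix ATH1 array, was kept when its mean signal was at least 500 in each population and when its highest population mean was at most 1.3 times its lowest. Of 22746 probe sets other than controls, 1854 reached 500 in every population, and 52 of those also kept to the ratio, against 1802 that did not. Evenness is therefore the way the 52 were found and is not a result about them. Where their population means, ratios and tests between populations are given, they are descriptions. The annotation of the array names 1 gene for 32 of the 52, several genes for 2 and none for 18, and those without a single gene are given by their identifiers only.

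All arrays came from the Columbia ecotype, from roots of seedlings 6 days after germination that had then spent 24 h on medium without iron, with 0.3 mM ferrozine, a chelator of ferrous iron. Roots were digested to protoplasts, and cells that carried a green fluorescent protein reporter were sorted by fluorescence. The WER::GFP line gave epidermis with lateral root cap (n = 4 arrays), the PET111 line columella root cap (n = 3), the CORTEX line cortex (n = 3), the SCR::GFP line endodermis with quiescent center (n = 3) and the WOL::GFP line stele (n = 3). Each population is named below by its first tissue. A population is thus whatever cells 1 reporter line marks after digestion and sorting, and all 5 share the lack of iron, so that each value is a level under iron deficiency. Roots kept on iron were not analysed here. Whether the replicates are separate cultures is not stated in the labels, and p-values measure only the spread between these samples. In sorted samples of many cells, fewer cells of a type and less RNA per cell cannot be told apart, and precision is limited by how few arrays there are.

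Genes needed by every living cell, often called housekeeping genes, include those for ribosomes, the respiratory chain of mitochondria, membrane traffic through the endoplasmic reticulum and Golgi, and central carbon metabolism. Plants often hold several gene copies for a single protein of this kind, and the copies can be used in different tissues. An even level across cell types is also what is looked for in a reference gene, the gene against which other transcripts are measured in quantitative PCR.

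Among the arrays, those of 1 population correlated at 0.894 to 0.981 across 16221 probe sets and those of different populations at 0.639 to 0.878. Epidermis replicate 4 stood apart from its group, at 0.894 to 0.938 with epidermis replicates 1 to 3, against 0.970 to 0.981 among those 3. Without that array 43 probe sets met the rule, 42 of them among the 52. Of the marker genes listed for these cell types that the annotation names, RCPG, APL4, DPE1 and SBE2.2 were highest in columella, PEP and PMEPCRF in cortex, and TRY in epidermis. EXPA18, a root hair expansin, averaged 340.3 in epidermis, 324 in cortex and 315 in stele, so it did not set epidermis apart here. EXPA7, of the same family, averaged 335 in epidermis and 386 in cortex, and the cortex marker CO2 was at most 26.8, in endodermis. Markers of endodermis and stele were not named by the annotation, so those 2 labels were not checked here.

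Across the 52 even probe sets the ratio of the highest to the lowest population mean ran from 1.12 to 1.298, with a median of 1.24. It was at most 1.2 in 15 of them and at most 1.1 in 0. Mean signals ran from 552.8 to 8647 with a median of 1465, and the lowest population mean was 1000 or more in 28 and 2000 or more in 16. The other 1802 probe sets at 500 or more in every population had a median ratio of 2.21 and a median signal of 1644. The probe set with the highest mean signal among the 52 is 258415_at, at 8647, which has no gene in the annotation.

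**Figure D1:**
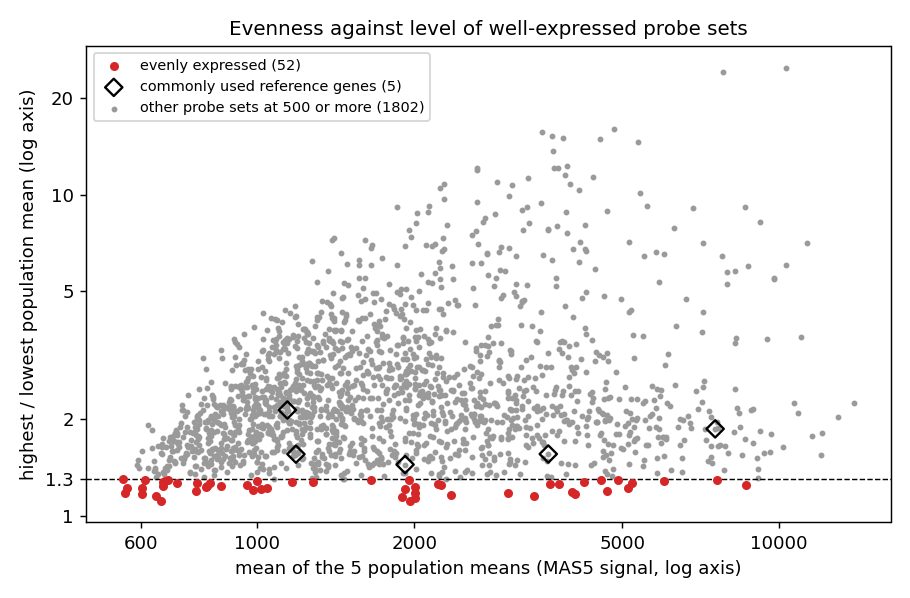
Ratio of the highest to the lowest population mean of MAS5 signal against the mean signal (both axes logarithmic) for the 1854 probe sets at 500 or more in every population. The 52 even probe sets lie at or under a ratio of 1.3 and over the range of signal from 552.8 to 8647, while the other 1802 have a median ratio of 2.21. Diamonds mark the 5 genes in common use as references that reach this level, all above the limit.

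The limits of the rule run through a continuous range. Just inside the ratio limit lay AT2G25280 at 1.298, AT4G07390, related to a protein that takes part in the use of dolichol-linked mannose, at 1.296, and CXE16, a carboxylesterase, at 1.295. Just outside it lay 264703_at at 1.301, AT2G22425, a subunit of the signal peptidase, at 1.302, AT3G14430 at 1.305 and AT1G45000, an ATPase of the proteasome cap, at 1.307. Triosephosphate isomerase, the glycolytic enzyme TPI, followed at 1.310. AT1G65270, FYD and AT5G58640 had ratios of 1.22, 1.25 and 1.25 and stayed out because their lowest population mean lay just under 500.

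Within the set, each population was at times the highest and at times the lowest. Epidermis was the highest population for 18 of the 52, columella for 10, cortex for 11, endodermis for 5 and stele for 8. The lowest population was epidermis for 6, columella for 12, cortex for 12, endodermis for 13 and stele for 9. Over the other 1802 probe sets at 500 or more, the highest population was epidermis in 23.4%, columella in 20.6%, cortex in 19.8%, endodermis in 24.1% and stele in 12.1%. In those 1802 the lowest population was epidermis in 17.4%, columella in 29.2%, cortex in 19.9%, endodermis in 22.5% and stele in 10.99%. These shares were not tested against each other. The arrays of the highest and of the lowest population did not overlap in 13 of the 52, beside 88.4% of all 16221 probe sets tested, and with so few arrays and a ratio of at most 1.3 such a gap is narrow.

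In limma's moderated F test over the 5 populations, 82.2% of the 16221 probe sets passed an adjusted p under 0.05 (Benjamini-Hochberg) and 0 of the 52 did, with 0 at an unadjusted p under 0.05. The rule used this same contrast, so nothing is read from that count. After quantile normalization 2 of the 52 passed, 258415_at and 250397_at. All 10 differences between populations had 95% intervals within 2-fold for 51 of the 52. The share was 3.38% of all probe sets tested and 7.99% of the other 1802 at 500 or more. The exception among the 52 was AT5G58110, whose widest interval reached 2.16-fold. Intervals within 1.5-fold were found for 6 of the 52 and for 0 of the other 1802. For the remaining 46 of the 52, a difference of 1.5-fold between some pair of populations lay inside the interval. The rule used these same means, so these counts are descriptions too.

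The named genes are grouped here by role and are not listed in order of rank. AT1G55840, which encodes a Sec14-like lipid transfer protein, had signals of 2049, 1948, 1786 and 2207 in epidermis, 1707, 2088 and 1982 in columella arrays, 1966, 2123 and 1756 in cortex arrays, 1849.8, 1758 and 1631 in endodermis and 2345, 1518 and 1720.3 in stele. Stele held both its highest and its lowest array, and all 5 populations overlapped. It averaged 1998 ± 177 in epidermis (SD, n = 4), the highest population, and 1746 ± 110.0 in endodermis (SD, n = 3), the lowest, a ratio of 1.14.

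Among the vesicle coat genes, AT1G30630 encodes epsilon-COP, a subunit of coatomer, the coat of vesicles that carry proteins back from the Golgi to the endoplasmic reticulum. Its signals were 2848, 3413, 3136 and 4026 in epidermis, 3749.8, 3438 and 3168 in columella arrays, 2817, 3416 and 3379 in cortex arrays, 3282, 3601 and 2955 in endodermis and 3935, 3760.4 and 3367 in stele. The highest array was epidermis replicate 4 and the lowest cortex replicate 1, and the populations overlapped, with a ratio of 1.15. AT5G05010, delta-COP of the same coat, had 2174, 2078, 1835 and 1484 in epidermis, 1702, 1674 and 1519.6 in columella arrays, 1323, 1574 and 1494 in cortex arrays, 1933, 1481 and 1296 in endodermis and 1835, 1375 and 1932 in stele. Here epidermis replicate 4 was the lowest array of its own group, and the ratio was 1.29, with epidermis highest and cortex lowest.

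Mitochondrial respiration is represented by subunits of complex I, which takes electrons from NADH, and of complex III, which passes them to cytochrome c. AT2G20360 of complex I had 2578, 2668, 2365 and 2528 in epidermis, 2129, 2345 and 2463 in columella arrays, 2096, 2885 and 2563 in cortex arrays, 2390.3, 1882 and 2272 in endodermis and 2364, 2275 and 2029 in stele. Both its highest array, in cortex, and its lowest, in endodermis, belonged to replicate 2 of their groups, and its ratio was 1.16. Another complex I subunit, AT5G52840, had 2660.2, 2958, 2952 and 2731 in epidermis, 2928, 2937 and 2541 in columella arrays, 2853, 3988 and 3056 in cortex arrays, 2662, 3128 and 3109.6 in endodermis and 3243, 3549 and 2781 in stele. Cortex replicate 2 stood highest for this gene too, and the ratio was 1.18. AT3G52730 of complex III averaged 4095 ± 418 in cortex and 3269.5 ± 611 in columella (SD, n = 3 each), with the other populations between them and a ratio of 1.25.

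In carbon metabolism, AT1G64190 encodes a 6-phosphogluconate dehydrogenase, an enzyme of the oxidative pentose phosphate pathway that yields NADPH. It varied least among replicates of all 52, with a pooled SD within populations of 0.12 on the log2 scale. Its signals were 4420.0, 4251, 3863 and 3706 in epidermis, 4020.0, 3603 and 3735 in columella arrays, 4610.2, 3706 and 4346 in cortex arrays, 4775, 4249 and 4272 in endodermis and 4031, 4015 and 3473 in stele. Its 3 endodermis arrays lay above its 3 columella arrays, the highest and lowest populations, with a ratio of 1.17. ACLA-1, a subunit of ATP-citrate lyase, which makes acetyl-CoA in the cytosol, averaged 5408 ± 483 in cortex (SD, n = 3) and 4195 ± 370.3 in epidermis (SD, n = 4), a ratio of 1.29. Columella and stele held its widest spread, at 5235 ± 1342 and 5064 ± 1339 (SD, n = 3 each). GLY2, a glyoxalase II that breaks down the conjugate formed from methylglyoxal and glutathione, averaged 887 ± 146 in columella and 723 ± 129 in cortex (SD, n = 3 each). AT4G15940, of the fumarylacetoacetate hydrolase family, averaged 638 ± 145 in cortex and 545 ± 72.5 in endodermis (SD, n = 3 each), close to the lower limit of signal.

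Genes of protein synthesis, folding and turnover formed another group. AT4G27090, a ribosomal protein of the L14 family, had 3972, 6035, 6051 and 6052 in epidermis, 5139.6, 4917 and 5541 in columella arrays, 4701, 4553 and 4322 in cortex arrays, 3372, 5664 and 5962 in endodermis and 4423, 5938 and 5727 in stele. Replicate 1 was the lowest array of its group in epidermis, endodermis and stele, and the 3 cortex arrays were close together. AT1G48900, a form of SRP54, the subunit of the signal recognition particle that binds signal peptides, averaged 1296 ± 169 in epidermis (SD, n = 4) and 1014 ± 68.3 in cortex (SD, n = 3), a ratio of 1.28. The co-chaperone Hop2, which links the Hsp70 and Hsp90 chaperones, averaged 702 ± 112 in epidermis (SD, n = 4) and 567 ± 77.5 in cortex (SD, n = 3). AT1G27530, the conjugating enzyme of the ubiquitin-like modifier UFM1, averaged 2174 ± 527 in endodermis and 1848 ± 244 in stele (SD, n = 3 each), a ratio of 1.18. AT1G26550, a peptidyl-prolyl isomerase, was among the genes with the smallest replicate spread, with 2415 ± 503 in columella and 1929 ± 180.4 in endodermis (SD, n = 3 each).

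Signalling and regulation were represented by few named genes. BZIP53, a transcription factor of the bZIP family, had 4667, 2908, 3468 and 6622 in epidermis, 5571, 4767 and 5320.0 in columella arrays, 3470.1, 4935 and 4722 in cortex arrays, 4734, 4257 and 4188 in endodermis and 5448, 4987 and 4591 in stele. The epidermis arrays alone spanned the whole range of this gene, with replicate 4 the highest and replicate 2 the lowest of all 16 arrays, so its ratio of 1.19 rests on a mean of unlike arrays. AT3G17090, a protein phosphatase of type 2C, had 1082, 1085, 1097 and 1082 in epidermis, 996, 714 and 1005 in columella arrays, 963, 1248 and 1067 in cortex arrays, 949.9, 963 and 813 in endodermis and 933, 917 and 893 in stele. Its epidermis and stele arrays were each close together and did not overlap with each other, while columella replicate 2 was the lowest array. FRA3, an inositol polyphosphate phosphatase, averaged 613 ± 84.8 in columella and 522 ± 114 in endodermis (SD, n = 3 each), and its highest and lowest arrays were both from stele.

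**Figure D2:**
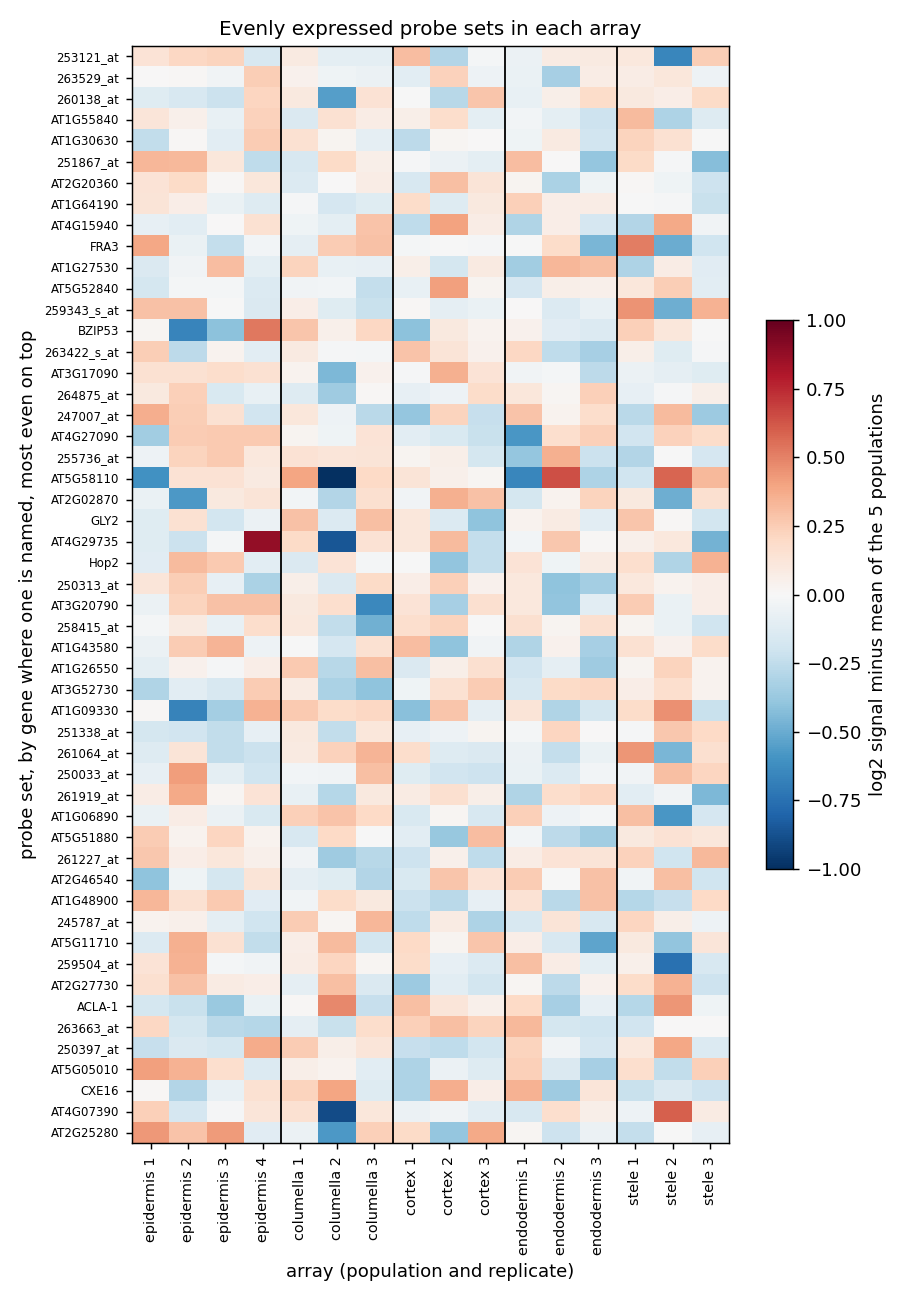
Log2 signal of each of the 52 even probe sets (rows, lowest ratio on top) in each of the 16 arrays (columns, by population). From each value the mean of the probe set's 5 population means of log2 signal was subtracted. Red is above that mean, blue below, and values beyond 1 take the end colour. BZIP53 is lowest in epidermis 2 and highest in epidermis 4, and columella 2 is the lowest array for 9 of the 52.

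The genes with the widest replicate spread show what an even mean can hide. AT5G58110, related to activators of the Hsp90 chaperone, had a pooled SD of 0.50 on the log2 scale, with 655, 1106, 1107 and 1064 in epidermis, 1313, 496 and 1145 in columella arrays, 1091, 1034 and 1014 in cortex arrays, 637, 1565 and 808 in endodermis and 868, 1494 and 1248 in stele. Within columella and within endodermis its arrays differed by more than the population means did. AT4G29735 had 1788, 1675, 1920.2 and 3575 in epidermis and 2228, 1074 and 2156 in columella, its highest and lowest populations. Epidermis replicate 4 was far above the other 3 epidermis arrays, and columella replicate 2 was the lowest of all 16. AT4G07390 was lowest in columella replicate 2 too, at 354, against 734 and 713 in columella replicates 1 and 3. AT1G09330, known as ECHIDNA, which acts in secretion from the trans-Golgi network, had 3590.0, 2245, 2808 and 4524 in epidermis and 4276, 4030.2 and 4106 in columella, where the 3 columella arrays fell inside the range of the epidermis arrays.

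Over the whole set the pooled SD within populations had a median of 0.21 on the log2 scale and ran from 0.12 to 0.50, against a median of 0.27 for the other 1802 probe sets at 500 or more. For mean signals from 500 to 1000 the median was 0.23 for even (n = 22) and 0.25 for other probe sets (n = 329). From 1000 to 2000 it was 0.19 for even (n = 9) and 0.27 for other probe sets (n = 749), and from 2000 up 0.20 for even (n = 21) and 0.26 for other probe sets (n = 724). The highest of the 16 arrays was at most 2 times the lowest in 44 of the 52, and in 145 of the other 1802. It was at most 1.5 times the lowest in 4 of the 52 and in 0 of the others. These spreads come from the arrays that gave the means, so they were not tested. The ratio of highest to lowest array includes the differences between populations that the rule limited, so its counts follow largely from the rule. The rule also favours probe sets with a small replicate SD, so nothing is read from the lower medians. Columella replicate 2 was the lowest array for 9 of the 52 and stele replicate 2 for 7, and epidermis replicate 4 was the highest for 7. Such counts were not taken for the other 1802, so they are not read as a trait of the even set. The median log2 shift of those 1802 from their own means was -0.14 in columella replicate 2, 0.11 in stele replicate 2 and 0.13 in epidermis replicate 4.

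**Figure D3:**
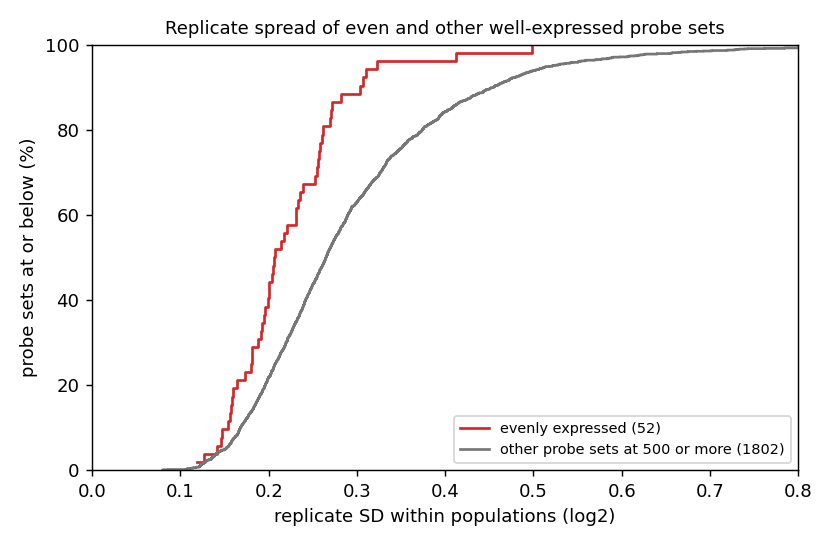
Cumulative share of probe sets (vertical axis, %) with a pooled log2 SD within populations at or below the value on the horizontal axis, for the 52 even probe sets and the other 1802 at 500 or more in every population. The medians are 0.21 for the even probe sets and 0.27 for the others.

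The remaining named genes of the set are given for completeness. AT5G11710, an epsin that acts with clathrin in traffic to the vacuole, had a ratio of 1.28, and AT1G06890, a transporter of UDP-xylose into the Golgi, one of 1.27. The oxygenase family member AT5G51880, which belongs to a class that uses iron and 2-oxoglutarate, averaged 719.9 ± 58.8 in epidermis (SD, n = 4) and 567 ± 67.2 in endodermis (SD, n = 3). AT3G20790, an oxidoreductase with a Rossmann fold, had a ratio of 1.24, and AT2G02870, an F-box protein with kelch repeats, one of 1.22. AT1G43580, AT2G27730 and AT2G46540 had ratios of 1.25, 1.29 and 1.28. No gene of the set had a second probe set on the array that the annotation names.

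Close relatives and complex partners of the even genes were looked up by locus. The rule was applied to them too: a relative at 500 or more in every population is outside the set only because its ratio exceeded 1.3. Its ratio and F test are therefore descriptions of that gene and are no independent evidence that relatives differ from even genes. Relatives below 500 were left out by level, whatever their ratio. Of 102 loci in 15 lists the annotation named 66, and 17 of these are genes of the even set. The other 51 probe sets include 28 at 500 or more in every population, with a median ratio of 1.87, beside 2.21 for all other probe sets at that level. In limma's F test 42 of the 50 tested passed, or 84%, beside 82.2% of all probe sets, a share near the background. Outside the even set, 1 probe set on these lists kept to the ratio, and it lay below 500 in some populations.

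Several relatives of the even genes differed among populations by over 2-fold. AT2G20450, the other gene of ribosomal protein L14, had 2512, 3739, 2464 and 1178 in epidermis, against 702, 468 and 564 in columella. Every epidermis array lay above every columella array, with epidermis replicate 4 the lowest of its group. The difference between these populations was 1.98 ± 0.30 (log2, SE). In limma's F test over all populations, which is not a test of this pair alone, the adjusted p was 5.6e-05. The even AT4G27090 had a ratio of 1.22, where AT2G20450 had 4.28.

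For 6-phosphogluconate dehydrogenase, AT5G41670 had 1591, 1459, 1929.7 and 1014 in epidermis, against 476, 615 and 459 in columella, with no overlap (ratio 2.90, F test adjusted p = 0.00033). AT3G02360 had its highest mean in endodermis, at 5778 ± 853 (SD, n = 3), and its lowest in epidermis, at 3347 ± 382 (SD, n = 4), with a ratio of 1.73 and an adjusted p of 0.00056 in limma's F test. Both genes thus differed among the populations over which AT1G64190 had a ratio of 1.17.

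Relatives of GLY2 differed among the populations as well. GLX2-1 had 809, 549 and 748 in endodermis, against 144, 112, 136 and 198 in epidermis (ratio 4.75, F test adjusted p = 2.1e-06). GLX2-5 was highest in columella, at 582, 698 and 734, against 236, 122, 141 and 163 in epidermis (ratio 4.06, adjusted p = 5.1e-06). The GLX2-4 gene was highest in columella and lowest in cortex, with a ratio of 2.89 and an adjusted p of 0.0020. In both GLX2-1 and GLX2-5 every epidermis array lay below every array of the highest population.

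The co-chaperone Hop1 had 822, 1235, 832 and 365 in epidermis, against 214, 131 and 193 in cortex (ratio 4.54, F test adjusted p = 5.5e-05). Hop3 had 237, 326 and 420.4 in columella, against 87.4, 105 and 119 in endodermis (ratio 3.16, adjusted p = 0.00014). The 2 genes were thus high in different populations, and Hop2 had a ratio of 1.24. The second SRP54 gene, AT5G49500, had 209, 168, 158 and 92.9 in epidermis, against 40.03, 33.4 and 30.1 in endodermis, without overlap (adjusted p = 9.8e-05). Its endodermis mean of 34.5 lay below 38.05, the signal that probe sets had to reach to be tested, so no ratio is given.

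The subunits of ATP-citrate lyase, an enzyme built from A and B subunits, did not share 1 pattern. ACLA-3 had 961, 1021 and 1056 in cortex, against 408, 548 and 304 in columella (ratio 2.41, F test adjusted p = 7.9e-05). The B subunit gene ACLB-1 was also highest in cortex and lowest in columella, at 1659.8 ± 382 and 671 ± 149 (SD, n = 3 each; ratio 2.47). ACLA-2 was highest in stele and lowest in cortex, at 3099 ± 429 and 1600.4 ± 153 (SD, n = 3 each; ratio 1.94, adjusted p = 0.0029). ACLA-1 itself was lowest in epidermis.

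Of 3 epsin probe sets other than the even AT5G11710, 2 passed the test. AT2G43160 by its brighter probe set had 1619.7, 1466 and 1532 in endodermis, against 643, 580.1 and 637 in columella (ratio 2.48, F test adjusted p = 0.0037). Its dimmer probe set averaged 41.3 or less and did not pass (adjusted p = 0.088), but passed with array weights (0.026) and with a block for replicate number (0.043). AT3G59290 had a ratio of 2.36 (adjusted p = 0.012).

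Other relatives and pathway partners gave mixed results. The bZIP factor bZIP44 averaged 784 ± 46.7 in endodermis and 422 ± 138 in cortex (SD, n = 3 each; ratio 1.86, F test adjusted p = 0.0037). AT1G05350, the enzyme that activates UFM1 before AT1G27530 conjugates it, had 684, 588, 782 and 685 in epidermis, against 208, 221 and 225 in endodermis (ratio 3.14, adjusted p = 1.1e-06). AT3G46220, the UFM1 ligase, had a ratio of 1.38 and did not pass (adjusted p = 0.23), nor did AT2G30460, a UDP-xylose transporter related to AT1G06890 (ratio 1.45, adjusted p = 0.28).

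**Figure D4:**
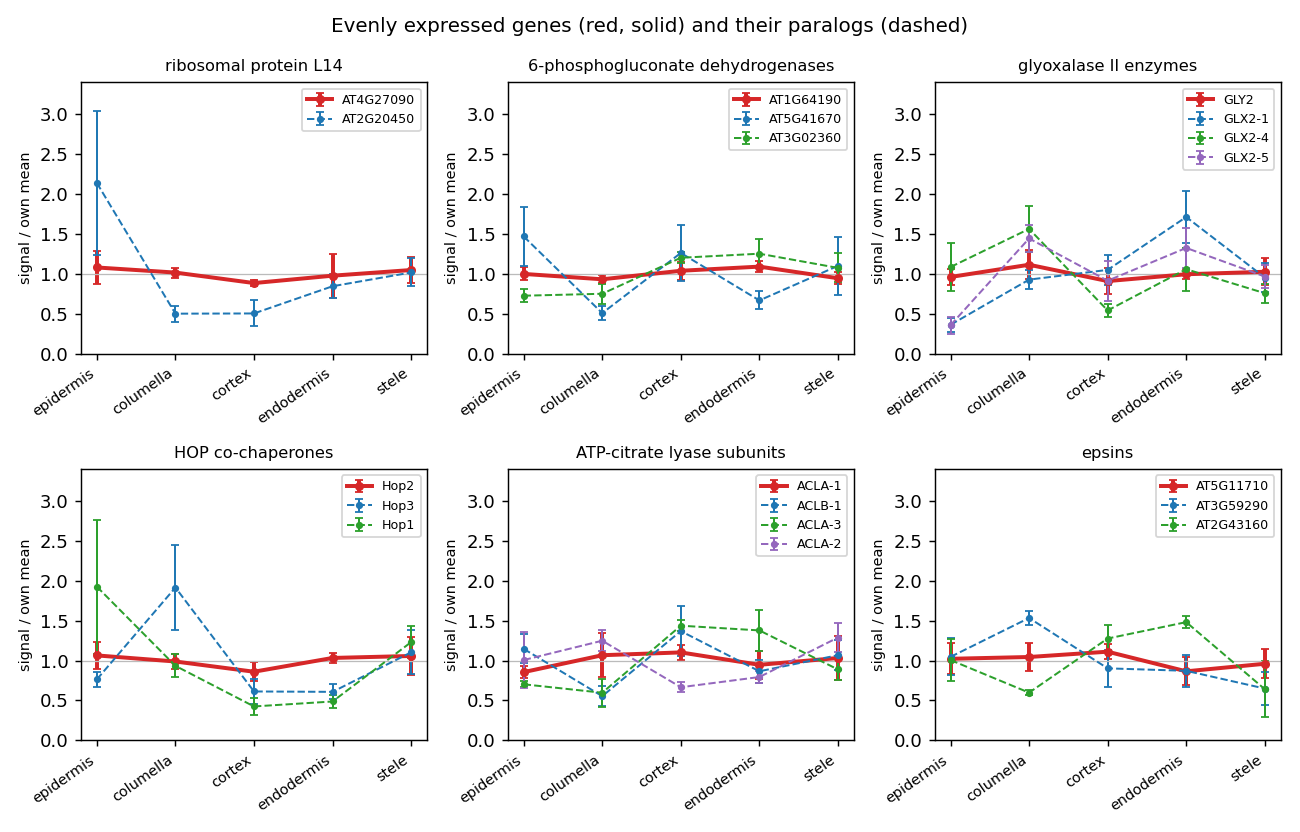
Population means of MAS5 signal divided by each probe set's own mean over populations, with SD over arrays (n = 4 for epidermis and 3 for the others), for 6 families. The even gene of each family is drawn solid and its relatives dashed. The dimmer probe set of the epsin AT2G43160 is left out. Lists not drawn include UDP-xylose transporters and UFM1 conjugation, where AT2G30460 and AT3G46220 did not pass the F test. AT2G20450, with a ratio of 4.28, peaks in epidermis, and AT4G27090, with a ratio of 1.22, runs close to its own mean.

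In coatomer, 5 of the 8 tested probe sets other than the 2 even subunits passed the F test, beside 82.2% of all probe sets tested. Endodermis was the lowest population for all 3 at 500 or more in every population, beside 22.5% of the other 1802 at that level, and this was not tested. Gamma-COP (AT4G34450) had 4011, 2643 and 2795 in stele, against 1820.0, 1672 and 1929 in endodermis (ratio 1.74, adjusted p = 0.0053). The alpha-COP gene AT1G62020 had a ratio of 2.06 (adjusted p = 0.0054) and averaged 1868 ± 213 in epidermis (SD, n = 4) and 907 ± 88.5 in endodermis (SD, n = 3). AT2G21390, the other alpha-COP gene, had 2877, 3235, 2667 and 2392 in epidermis, against 1744, 1621 and 1403 in endodermis, a ratio of 1.76. It did not pass (adjusted p = 0.062), and it passed without stele replicate 1 (0.014), 2 (0.0022) or 3 (0.0497). Its stele replicate 2 stood at 1008, against 2815 and 2310 in stele replicates 1 and 3.

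Beta'-COP is encoded by 3 genes, of which AT3G15980 had 592, 640.2, 675 and 601 in epidermis, against 192, 154 and 191 in endodermis (ratio 3.51, F test adjusted p = 8.4e-06). The 2 probe sets of the beta'-COP gene AT1G79990 disagreed. One, 262051_at, averaged 655 ± 148 in epidermis (SD, n = 4) and 115 ± 23.5 in endodermis (SD, n = 3), with a ratio of 5.68 and an adjusted p of 0.00015. The other, 262058_at, averaged 549 ± 61.2 in columella (SD, n = 3) and 444 ± 61.3 in epidermis (SD, n = 4), with a ratio of 1.24 and an adjusted p of 0.49. The third beta'-COP gene, AT1G52360, averaged 255 ± 57.1 in columella and 139 ± 28.2 in cortex (SD, n = 3 each; ratio 1.83). It did not pass (adjusted p = 0.12), but passed under 4 of the alternatives. AT2G34840, the second epsilon-COP gene, averaged 271 ± 56.0 in epidermis (SD, n = 4) and 94.9 ± 15.8 in endodermis (SD, n = 3; ratio 2.86, adjusted p = 0.00015), where the even AT1G30630 had a ratio of 1.15.

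Of the listed complex I subunits other than the 2 even ones on that list, the 11 at 500 or more in every population had ratios of 1.52 to 1.99. In the F test 11 of 13 passed, beside 82.2% of all probe sets tested. Columella was the lowest population for 7 of the 11, beside 29.2% of the other 1802 at that level, and this was not tested. AT3G08610 had 8604, 6904 and 9316 in endodermis, against 3786, 4441, 3396 and 4994 in epidermis, with no overlap (ratio 1.99, adjusted p = 0.0010). OEP16-3 (AT2G42210) had 4752, 6417 and 4548 in stele, against 2929.9, 2595 and 2605 in columella (ratio 1.93, adjusted p = 0.00014). AT5G67590, known as FROSTBITE1, was highest in cortex and lowest in endodermis, with a ratio of 1.66. AT5G47890 and AT3G62790 did not pass (ratios 1.52 and 1.59, adjusted p = 0.13 and 0.10), but AT5G47890 passed without endodermis replicate 2 (0.020) and AT3G62790 with array weights (0.037). Calls of 4 subunits were lost under some alternatives, with the adjusted p reaching 0.12 for AT5G11770 without cortex replicate 2, 0.10 for AT2G02050 without columella replicate 3 and 0.083 for AT2G47690 without cortex replicate 3. AT4G02580 was the fourth, at 0.070 with the replicate number as a block.

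All 10 tested probe sets of complex III other than the even AT3G52730 passed the F test, beside 82.2% of all probe sets tested, and 1 of these calls rested on a single array. The 8 at 500 or more had ratios of 1.60 to 3.36. Cytochrome c1, the subunit that hands electrons on, has 2 genes that both stood at the high end. AT5G40810 had 2572, 3413 and 2926 in stele, against 802, 1231 and 617 in columella (ratio 3.36, adjusted p = 8.8e-07). AT3G27240 had 2695, 3132 and 3557 in cortex, against 1045, 1118 and 875 in columella (ratio 3.09, adjusted p = 1.4e-05). AT1G51980, a core subunit that also belongs to the processing peptidase of mitochondria, had a ratio of 1.60 (adjusted p = 0.016, and 0.12 without endodermis replicate 1).

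Genes in common use as references for quantitative PCR were looked up in the same way. Of 42 loci listed, the annotation named 12, and none of these was in the even set, which holds 52 of 22746 probe sets. In limma's F test 9 of the 12 passed, beside 82.2% of all probe sets tested, and 5 were at 500 or more in every population. The median ratio of these 5 was 1.56, beside 2.18 for all 1854 probe sets at that level, 52 of which are in the even set. Their absence from so small a set is thus no sign that they were less even than other genes. Among the 1854 probe sets at that level, ordered by ratio, AT5G46630, an adaptor subunit of clathrin coats, was at rank 149 with a ratio of 1.44. Its signals were 2597, 2053 and 2213 in endodermis, against 1298, 1671 and 1782 in cortex (adjusted p = 0.020, and 0.075 with array weights).

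The tubulin gene TUB6 was at rank 268 (ratio 1.56) and did not pass (adjusted p = 0.14, 0.017 with array weights and 0.047 without stele replicate 2). The ubiquitin-conjugating enzyme UBC28 was at rank 272 (ratio 1.56) and passed narrowly (adjusted p = 0.049), but not under 17 of the alternatives. GAPC2, a glyceraldehyde-3-phosphate dehydrogenase, was at rank 592, with 10111, 9688 and 11509 in endodermis, against 5525, 5861, 5181 and 5803 in epidermis (ratio 1.87, adjusted p = 0.00019). AT4G26410 was at rank 878 (ratio 2.14). The actin ACT11 had 2148, 1839 and 2663 in stele, against 403, 292 and 109 in columella, the widest ratio of the 12 at 8.27.

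**Figure D5:**
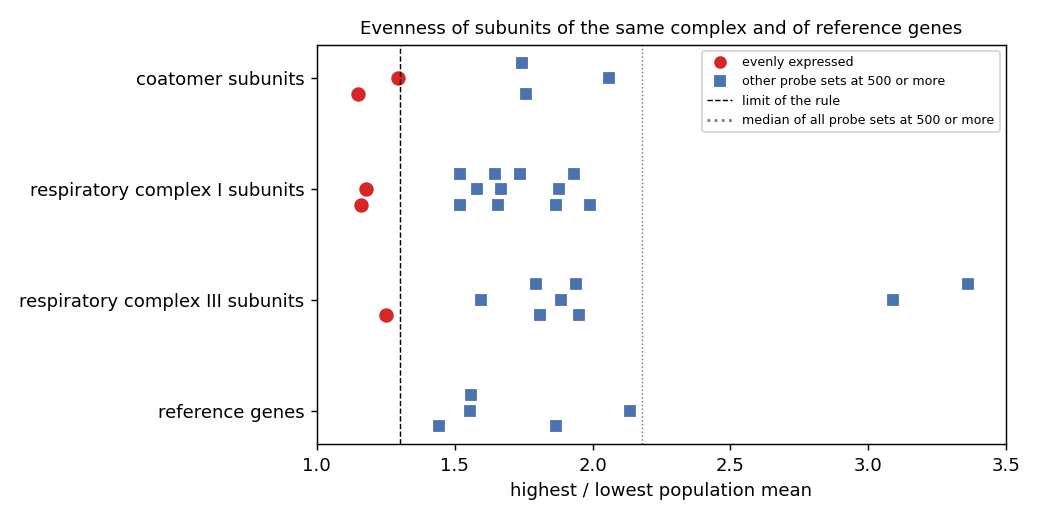
Ratio of the highest to the lowest population mean, on a linear axis, for the probe sets of coatomer, complex I, complex III and the reference genes at 500 or more in every population, with 1 point per probe set, a dashed line at the limit of 1.3 and a dotted line at the median of all 1854. The even subunits lie under the limit, the other complex I subunits between 1.52 and 1.99, the other complex III subunits between 1.60 and 3.36, and the reference genes between 1.44 and 2.14.

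Iron-related genes were set beside the even ones, since all roots were short of iron. Of 22 loci listed for iron uptake, transport and its regulation, the annotation named 12, measured by 13 probe sets. None was in the even set, which holds 52 of 22746 probe sets. Only 1 of the 13 reached 500 in every population, and the others were left out by level, whatever their ratio. All 13 passed the F test, beside 82.2% of all probe sets tested, and PYE lost its call under some alternatives. The 9 whose lowest population mean reached 38.05 had ratios of 1.76 to 13.9, and no ratio is given for the other 4. The 1 at 500 or more in every population was ILR3, a bHLH factor that takes part in iron regulation, with a ratio of 2.07 between endodermis and epidermis. At the low end was PYE, a bHLH repressor, with a ratio of 1.76. AT3G13610, an enzyme of coumarin synthesis, had 1172, 1016 and 1062 in cortex, against 15.1, 28.3 and 3.01 in columella, where it lay below 38.05.

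Membership depended on single arrays for most of the set. Of the 52, 12 met the rule without each of the 16 arrays in turn, and the same 12 also met it after quantile normalization and with the geometric mean or the median of the arrays in place of the mean. Of these 12, 7 have 1 named gene: AT1G55840, AT1G30630, AT2G20360, AT1G64190, AT4G15940, AT5G52840 and AT3G17090. Their known roles include lipid transfer, a vesicle coat, complex I, the oxidative pentose phosphate pathway and a phosphatase.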

How the data were processed

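The deposited table holds MAS5 signal intensities on a linear scale, which the authors computed for each array, according to what is recorded per the submitters' processing notes; a MAS5 version and a genome build are not given in the sources used here. Per the labels' protocols, RNA was amplified in a two-cycle protocol before hybridization. The deposited scaling was kept. On that scaling the median signal of an array ran from 49.98 in cortex replicate 3 to 81.08 in endodermis replicate 2. An even signal is thus even relative to this scaling, and a level per cell was not measured. For fits, 10.21 (the table's 20th percentile) was added to each intensity before taking log2, and fold changes of low probe sets are understated on that scale. The 16221 probe sets that reached 38.05, the 40th percentile, on 3 or more arrays were tested.

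The fit, in limma 3.58.1 under R 4.3.3, had 1 mean per population and used all 16 arrays; eBayes ran with its trend option and 11 residual degrees of freedom remained. The 2-sided moderated F test over the 5 populations was adjusted by Benjamini and Hochberg over all tested probe sets at 0.05. The script was tested on simulated data. Ratios are of linear population means. Tables and figures were made with Python 3.11.15, pandas 2.3.3 and matplotlib 3.10.9.

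Gene names came from the array's annotation, which names 1 gene for 13513 of 22746 probe sets, several for 503 and none for 8730. Genes were first named by rank: the 10 lowest ratios, 8 highest means, 6 lowest and 4 highest replicate SDs, and the 3 on each side of the ratio limit. Genes with listed relatives were added after the members were seen. Lists by descriptive words could be matched to symbols only and held no member. The members and lists were chosen with earlier results of these data known. The lists of relatives and partners were written from general knowledge once the members were known and before the relatives' values were looked at. Alternatives were quantile normalization, geometric means and medians, other limits, pseudocounts and filters, array weights, a constant prior variance in eBayes, a block for replicate number, and leaving out each array.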

Additional observations from a re-analysis of the deposited data

Results flagged for a closer look

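In the epidermis group of 4 arrays, 21 named members were screened for an array apart from the others. Dixon's ratio of gap to range was used, and 3 were found. The nominal chance rate of about 1 in 20 is no measure of this count, because some members were named for their high replicate SD. AT4G29735 and AT5G58110 were among those. AT4G27090 had 3972 in replicate 1, against 6035 to 6052 in the other 3 (gap over range 0.992). AT4G29735 had 3575 in replicate 4, against 1675 to 1920 (0.871). AT5G58110 had 655 in replicate 1, against 1064 to 1107 (0.903).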

How the results depend on the processing

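The count of probe sets that met the rule was 52, and moved to 32 with the median of the arrays, 28 with a minimum signal of 1000, 15 with a ratio limit of 1.2 and 200 with a limit of 1.5. Of the 52, 34 still met it after quantile normalization, 23 with medians, 28 at the higher minimum and 15 at the tighter limit. Leaving out 1 array gave 43 to 63 probe sets, with 41 to 51 of the 52 among them. Quantile normalization brought 2 of the 52 past the F test, while leaving out any 1 array left 0 to 0. Leaving out 1 array gave 12567 to 13880 calls over all probe sets, 39 to 43 among relatives and partners, and a median replicate SD of 0.198 to 0.216 (log2). None of 399 recomputed ratios of named members was labelled as moved, but that label did not use the ratio limit of the rule. Some ratios crossed that limit. FRA3 went from 1.175 to 1.415 without stele replicate 1, and BZIP53 from 1.193 to 1.424 after quantile normalization.

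To see whether replicate numbers pair the arrays, deviations from the population means were correlated between arrays of different populations. The correlations ran from -0.26 to 0.24 for same-numbered arrays, with 6 of 30 pairs over 0.1. For arrays of other numbers they ran from -0.37 to 0.36, with 19 of 72 pairs over 0.1, so no pairing by number was seen. With the replicate number as a block, 13693 probe sets, 0 of the 52 and 43 relatives and partners passed. Calls near the threshold, such as UBC28 (adjusted p 0.0065 to 0.18 over the alternatives), changed with the setting, and the cause was not tested. Alternatives for second probe sets of member genes were not run, as there were none.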
